A study of Danio rerio with 12 samples.

Results

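Cytokines, chemokines and the receptors that bind them were followed in whole brains of adult zebrafish. The members were chosen by name alone, as every gene on the array whose current symbol begins with il and a digit, ebi3, tnf, cxcl, ccl and a digit, cxcr, or ccr and a digit, with the tnfaip genes left out. This gave 58 genes, read by 86 probes, of the 11484 genes that a RefSeq match put a name to. The genome annotation used for the names, GRCz12tu, holds 158 symbols of this form, so that most of the family was not measured by a named probe. The genes il6, cxcl8a and il6st were not among those with a named probe.

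The 12 arrays came from 4 groups with 3 arrays each. PIC_G fish were injected intraperitoneally with poly(I:C), a synthetic double-stranded RNA (dsRNA) that stands in for a viral infection, and could move through a thermal gradient. PIC_sG fish had the same injection and no gradient. PBS fish were injected with saline in the gradient, and Control fish were not injected, with the labels placing them in the gradient and the study's methods outside it. All were sampled at 24 h by the labels' number, to which the methods give the unit. The labels give a poly(I:C) dose of 1 mg per kg and the methods a lower one, and no strain, sex or line is given in the sources used here. Each array is labelled as a pool of 3 brains from groups of 9 fish, so that p-values measure the spread between pools. Every slide held 1 array of each group, and a replicate number is therefore a slide. The deposited series table carries the PIC_G and PIC_sG arrays under each other's labels (6 of its 12 columns), while each sample's own table holds the values of the scanner file with its label (tolerance 0.001 on the natural log scale). Which labelling is right is not settled by the values. The scanner labels were used, and comparisons that average both dsRNA groups do not depend on them.

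Cytokines are secreted proteins with which immune cells, glia and neurons signal to one another. Interleukins and members of the tumour necrosis factor (TNF) family act on receptors that change gene expression, survival or division in the receiving cell, while chemokines act on G protein-coupled receptors and direct where cells move. In the vertebrate brain, microglia and infiltrating leukocytes are major sources and targets of these signals, and pro-inflammatory cytokines are part of the path by which infection raises the preferred body temperature. Several zebrafish members are copies that have no single mammalian counterpart, and some lie side by side in GRCz12tu with no coding gene between them, as do cxcr3.2, cxcr3.3 and cxcr3.1, ccl38a.5 and ccl38a.4, il19l and il10, il26 and il22, and il17a/f2 and il17a/f1. Whether a probe for one such gene also binds its neighbour's transcript was not tested.

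Levels are given as the log2 of the processed spot signal minus the 75th percentile of the same array, so that a level of 0 is as bright as that percentile and a difference of 1 is a doubling of signal. A probe's level depends on its own binding, and levels are therefore compared between groups and never between genes. The arrays differed in brightness. Their 75th percentile of signal was 238 to 311 intensity units on PIC_G arrays, 34.6 to 541 on PIC_sG arrays, 99.1 to 340 on PBS arrays and 125 to 392 on Control arrays, and no feature was saturated. PIC_sG replicate 3 was the dimmest array. Member genes well above background, the scanner software's own call against local background, numbered 32 on each of the PIC_G arrays, 34, 29 and 10 on the PIC_sG arrays, 21, 23 and 25 on the PBS arrays, and 11, 27 and 22 on the Control arrays. Over all probes, PIC_G arrays had 17773 to 21900 features above background, PIC_sG arrays 6330 to 20280, PBS arrays 11275 to 13804 and Control arrays 10725 to 17901. The part of array brightness in these counts was not tested. Brain markers such as elavl3 were measured, and the lists of neuronal and radial glial genes had 4 of 6 and 4 of 4 members that passed the filter described next.

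A probe was kept where 3 or more of the 12 arrays showed it well above background, as was so for 42 of the 86 member probes. The 31 genes with a kept probe were tested, and the 27 others are described by detection only. Of these 27 genes, 18 were above background on 0 of 12 arrays and 9 on 1 or 2 arrays, in each case on dsRNA arrays and on 0 of the 6 PBS and Control arrays. The share of all genes on the array with this pattern was not counted. Most of the genes detected nowhere were ligands. Of 17 interleukins and interleukin subunits, 3 were tested (il15, il34 and ebi3) and 10 were above background nowhere, among them il10, an anti-inflammatory cytokine, il12a and il12ba, whose mammalian counterparts form IL-12, il21, il22 and il26. The gene il1b, which encodes the pro-inflammatory interleukin-1 beta, was called above background on PIC_G replicate 2 and PIC_sG replicate 2 alone. Its scaled level of -0.16 on PBS replicate 1, which was not so called, was above the -1.34 of PIC_G replicate 2. The gene tnfa, one of the zebrafish TNF genes, was above background on 0 of 12 arrays. Among TNF ligands 5 of 7 genes were tested, among chemokines 6 of 7, among interleukin receptors 7 of 12, among TNF receptors 5 of 6 and among chemokine receptors 5 of 9. The il1rapl1a probe, for an accessory protein of the IL-1 receptor family that neurons use at synapses in mammals, was above background on 0 of 12 arrays.

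**Figure D1:**
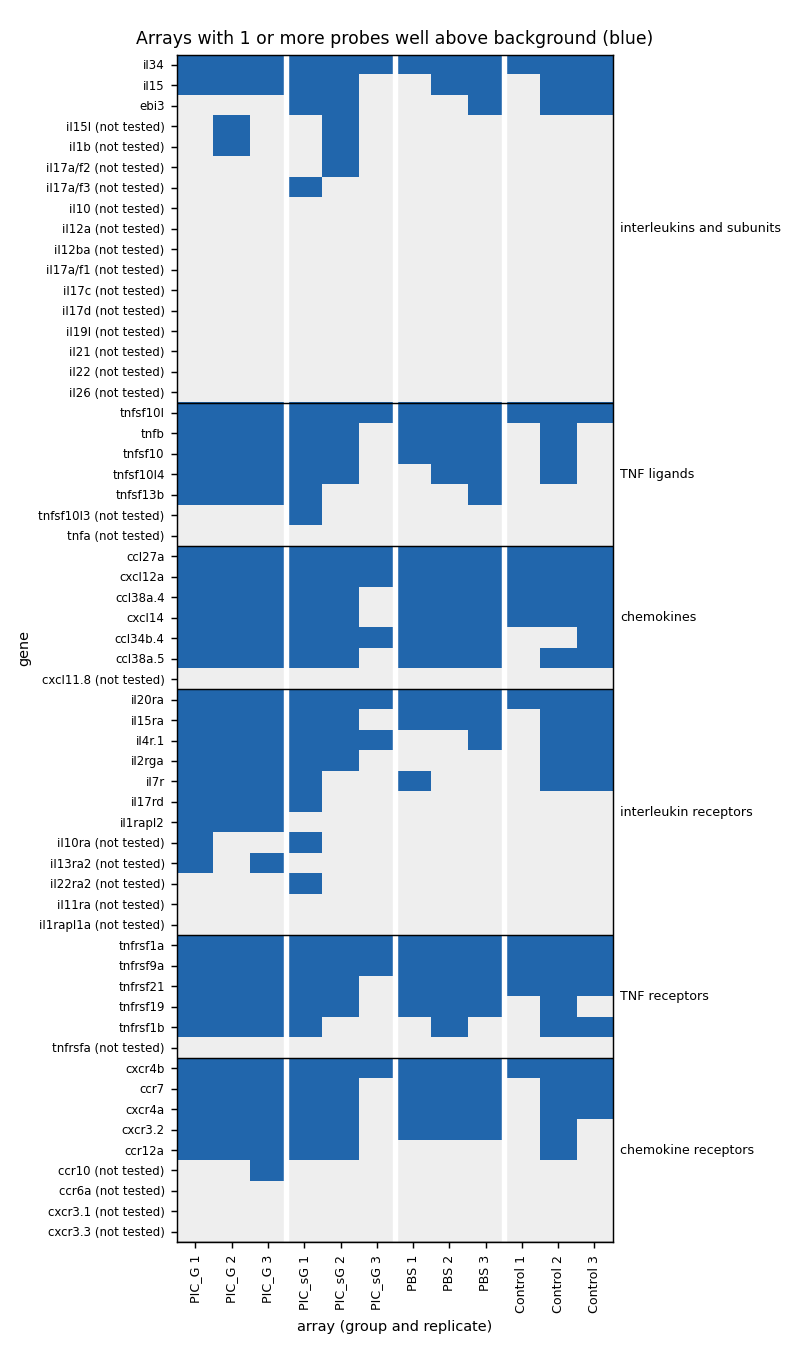
Detection of the 58 genes. Rows are genes grouped by role, columns are arrays by group and replicate, and blue marks an array on which 1 or more probes of the gene were well above background. The 27 genes marked as not tested are blank on every PBS and Control array, and PIC_sG replicate 3 and Control replicate 1 are the sparsest columns, with 10 and 11 genes.

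Where a gene is not detected, its scaled level depends in part on how dim the array is. The 30 member probes above background nowhere had median levels of -5.11, -4.29 and -4.46 on the PIC_G arrays, -4.68, -3.28 and -1.25 on the PIC_sG arrays, -2.52, -3.14 and -3.42 on the PBS arrays, and -2.40, -4.37 and -3.48 on the Control arrays. A low level thus reads lower on PIC_G arrays than on PBS arrays even for a gene that neither detects. Of the tested genes 8 were above background on all 12 arrays (ccl27a, cxcl12a, cxcr4b, il20ra, il34, tnfrsf1a, tnfrsf9a and tnfsf10l). Another 5 (ccr12a, il17rd, il1rapl2, il2rga and tnfsf13b) passed the filter with fewer than 3 of the 6 arrays without dsRNA, and ebi3 with fewer than 3 of the 6 dsRNA arrays. The filter sits close to several of these. On the inside at 3 arrays were 1 probe each of ebi3, il1rapl2, il34 and tnfrsf1a, and on the outside at 2 arrays were the best probes of il1b, il10ra, il13ra2 and il15l.

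The first comparison set the 6 arrays of dsRNA-injected fish against the 6 arrays of fish without dsRNA. Among the latter, PBS fish were injected and Control fish were not, so that injection and dsRNA are mixed in this contrast. The members it called were receptor genes. The interleukin-4 receptor gene il4r.1 and the chemokine receptor genes cxcr3.2 and ccr12a were 3.38-, 2.82- and 2.98-fold higher on the dsRNA arrays. The chemokine gene ccl34b.4 differed by as much, 2.84-fold, with overlapping arrays (log2 difference 1.50 ± 0.37, SE, adjusted p = 0.0793), and passed without PBS replicate 1 or with the deposited series table. Over PBS, however, ccl34b.4 was higher by only 0.04 ± 0.53 in PIC_G and 0.44 ± 0.53 in PIC_sG, while PBS exceeded Control by 2.52 ± 0.53. In all, 3 of the 31 tested members were higher at an adjusted p under 0.05 in limma, or 9.68%, against 1.23% of the 16130 transcripts tested on the array. None of the 31 was lower, against 0.223% of all transcripts. In each of these brains, more cells of a type and more RNA per cell cannot be told apart. The median log2 difference of the 31 members was 0.40, with 25 above 0, and that of all transcripts was 0.07. Against PBS alone, the member median was 0.08 in PIC_G, with 18 above 0, and -0.24 in PIC_sG, with 15 above 0. All transcripts had medians of 0.10 and -0.06 there. For PBS over Control the member median was 0.61. A member that passed the filter through the dsRNA arrays was more likely to differ. Of the 3 called, ccr12a was above background on 5 dsRNA arrays and 1 other, and an il4r.1 probe was so on 5 dsRNA arrays alone. The share called and these medians therefore describe the tested members only.

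The gene il4r.1 encodes a receptor chain for interleukin-4 and interleukin-13, cytokines of type 2 immunity. Its level was 1.06, 0.47 and 0.45 on the PIC_G arrays, 0.30, 0.22 and 0.66 on the PIC_sG arrays, -1.30, -1.21 and -0.65 on the PBS arrays and -1.71, -1.48 and -0.99 on the Control arrays. All 6 dsRNA arrays lay above all 6 others, and PBS and Control overlapped. The log2 difference was 1.76 with a standard error of 0.23 (adjusted p = 0.00247), and within slides 1, 2 and 3 it was 2.19, 1.69 and 1.38. Both probes of the gene moved the same way, by 1.81 ± 0.26 (SE, adjusted p = 0.00558) for one and by 1.70 ± 0.38 (SE, adjusted p = 0.0583) for the other. The first of these probes was above background on 5 arrays, all of dsRNA-injected fish, and passed the filter through them alone. By either probe, the gene was above background on 3 PIC_G, 3 PIC_sG, 1 PBS and 2 Control arrays. Taken singly, PIC_G exceeded PBS by 1.72 ± 0.32 (adjusted p = 0.0608) and PIC_sG exceeded PBS by 1.45 ± 0.32 (adjusted p = 0.0617), and with the slide as a block the adjusted p was 0.0495 and 0.0489. PIC_G and PIC_sG themselves differed by 0.27 ± 0.32 (adjusted p = 0.879).

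The receptor gene cxcr3.2 belongs to the CXCR3 family, which in zebrafish guides macrophages to sites of infection. Its level was 0.95, 0.76 and 1.38 on the PIC_G arrays, 0.56, 0.46 and 0.35 on the PIC_sG arrays, 0.08, -0.14 and -0.31 on the PBS arrays and -1.03, -1.61 and -1.50 on the Control arrays. The 4 groups did not overlap at any point, with PIC_G above PIC_sG, PIC_sG above PBS and PBS above Control. It was the single transcript of 16130 with that order (0.0062%), and 0.105% of transcripts had 4 groups apart in any order. This pattern was singled out after the values were seen. The gene was above background on 3 PIC_G, 2 PIC_sG, 3 PBS and 1 Control arrays, so that the order includes undetected signal. On PIC_sG replicate 3 its level of 0.35 was below the array's dimmest signal well above background, 0.84. The dsRNA difference was 1.50 with a standard error of 0.20 (adjusted p = 0.00313) and measured 1.23, 1.49 and 1.77 within the 3 slides. Of the steps between neighbouring groups, PBS over Control was 1.25 ± 0.28 (SE, adjusted p = 0.0387), PIC_sG over PBS was 0.59 ± 0.28 (adjusted p = 0.321) and PIC_G over PIC_sG was 0.57 ± 0.28 (adjusted p = 0.774), and the last of these turns its sign if the dsRNA groups are exchanged. The neighbours cxcr3.1 and cxcr3.3 were above background on 0 of 12 arrays.

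The third receptor, ccr12a, is a CC chemokine receptor gene. Its level was -0.47, -0.62 and -0.25 on the PIC_G arrays, -1.83, -0.70 and -0.29 on the PIC_sG arrays, -2.52, -2.10 and -2.89 on the PBS arrays and -2.48, -1.74 and -1.88 on the Control arrays. It was above background on 3 PIC_G and 2 PIC_sG arrays and on 0 PBS and 1 Control arrays, and PIC_sG replicate 1 overlapped the Control arrays. The log2 difference was 1.58 ± 0.29 (SE, adjusted p = 0.0221), with 1.35, 1.26 and 2.12 within slides. PBS levels of this gene lay near the undetected probes of the same arrays. The measured means were -0.45 in PIC_G and -2.50 in PBS (limma, adjusted p = 0.0699). With each PBS array held to the dimmest signal it had well above background, PIC_G stood 2.25-fold above PBS. That signal is the dimmest of any probe, so 2.25-fold is not a strict lower bound for ccr12a. The call for ccr12a was lost without Control replicate 3 (adjusted p = 0.0541), PBS replicate 3 (0.0661), PIC_sG replicate 2 (0.0616), PIC_G replicate 1 (0.0551) or PIC_G replicate 3 (0.0776). All 3 calls were lost with scaling on the 50th percentile or with a normexp background correction, that of ccr12a also with quantile normalization (0.0889) or no filter (0.187) and that of cxcr3.2 also with no filter (0.0777), in each case in the same direction.

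Further members differed without passing the test. The TNF receptor gene tnfrsf1a, whose product carries a death domain and relays TNF signals, had levels of 0.61, 0.50 and 0.63 on the PIC_G arrays, 0.51, 0.90 and 0.99 on the PIC_sG arrays, -0.62, 0.38 and 0.16 on the PBS arrays and -0.34, -0.20 and -0.10 on the Control arrays. In this level, which joins the gene's 2 probes, its dsRNA and other arrays did not overlap. That was also the case for il4r.1 and cxcr3.2 and for 1.28% of all transcripts in that direction. The tnfrsf1a probe detected on all 12 arrays did overlap, with 2.45 on PBS replicate 2 and 2.25 on PIC_G replicate 2. The other probe was detected on 3 arrays. The joined difference of tnfrsf1a was 0.81 ± 0.22 (SE, adjusted p = 0.0987). The chemokine gene ccl27a had levels of 4.06, 4.31 and 3.90 on the PIC_G arrays, 4.30, 4.29 and 3.88 on the PIC_sG arrays, 3.06, 4.17 and 3.93 on the PBS arrays and 3.18, 3.01 and 2.59 on the Control arrays, a difference of 0.80 ± 0.24 (adjusted p = 0.137). The PBS arrays of ccl27a spanned both dsRNA and Control levels.

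**Figure D2:**
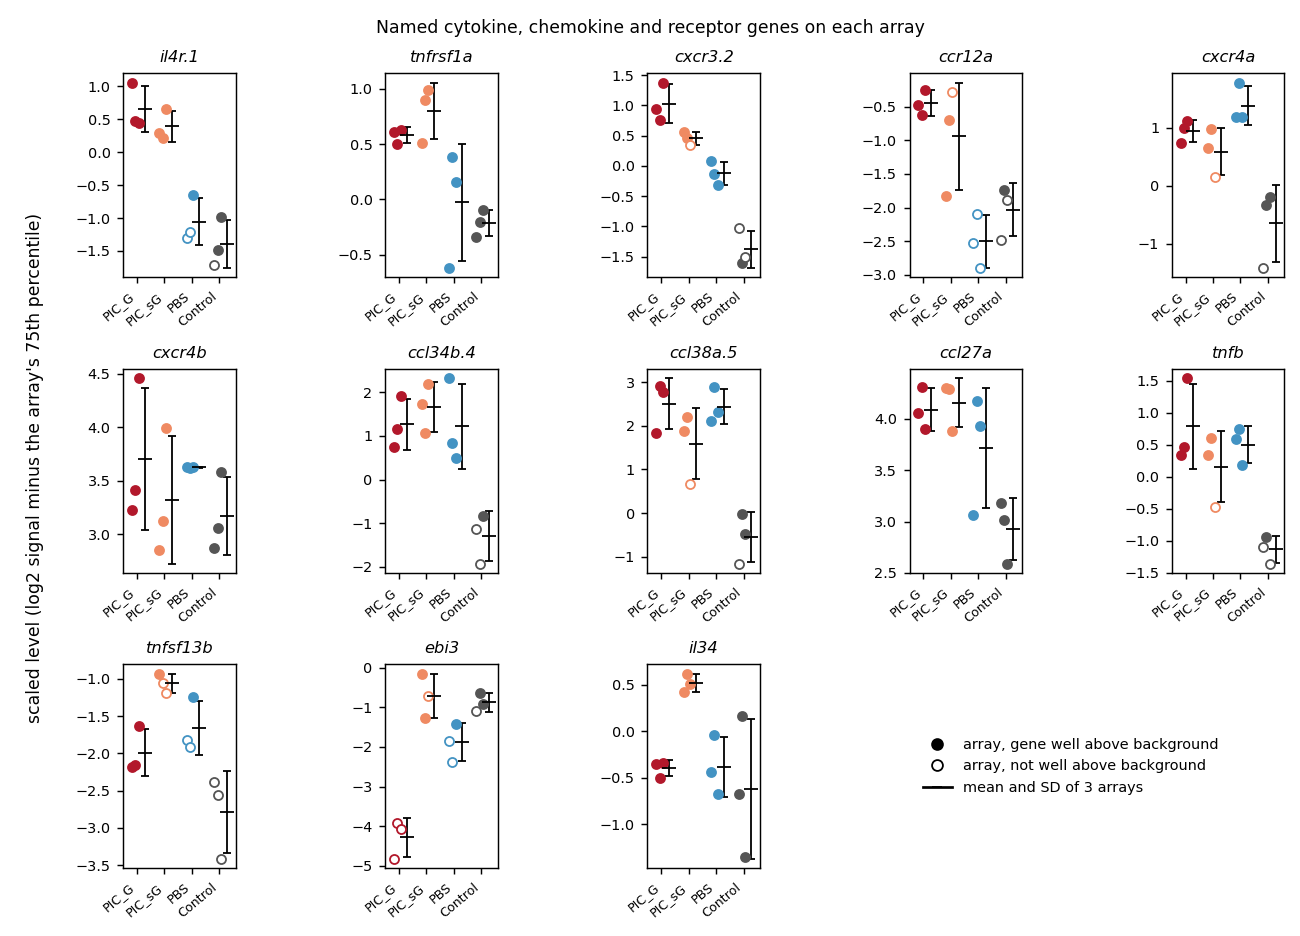
Levels of the 13 genes described in full. Each panel is a gene, the vertical axis is the scaled log2 level, points are single arrays of PIC_G, PIC_sG, PBS and Control from left to right, and bars are the mean and SD of 3 arrays. Filled points were well above background. All 6 dsRNA arrays lie above the other 6 for il4r.1, tnfrsf1a and cxcr3.2, and ccl34b.4, ccl38a.5, cxcr4a, tnfb and tnfsf13b are lowest on the Control arrays. Levels join a gene's kept probes, and the tnfrsf1a probe detected on all 12 arrays did overlap.

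In several chemokine and TNF ligand genes, injected fish of every kind stood above Control fish. The comparison of PBS with Control asks what saline injection did, together with the gradient if the methods' account of the Control fish is the right one. It called 5 of the 31 members higher (16.1%), against 2.5% of all transcripts, and 0 lower, against 1.2%. These were the chemokine genes ccl38a.5 and ccl34b.4, the chemokine receptor genes cxcr4a and cxcr3.2, and tnfb. The PBS and Control arrays did not overlap in that direction for 14 of the 31 members, against 16.8% of all transcripts. The median difference was 0.61 over the tested members and 0.07 over all transcripts, and was 1.60 over the 6 tested chemokines as well as over the 5 tested TNF ligands. With the slide as a block, which pairs these groups, tnfsf10l4 passed as a sixth gene (adjusted p = 0.0398, against 0.0517 without the block).

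The chemokine gene ccl38a.5 had levels of 1.84, 2.91 and 2.78 on the PIC_G arrays, 1.88, 2.21 and 0.67 on the PIC_sG arrays, 2.11, 2.88 and 2.31 on the PBS arrays and -1.16, -0.02 and -0.49 on the Control arrays. All 9 arrays of injected fish were above the 3 Control arrays. PBS exceeded Control by 2.99 ± 0.48 (SE, adjusted p = 0.0145), a 7.94-fold difference, and by 3.27, 2.90 and 2.80 within slides. Its neighbour ccl38a.4 differed by 2.41 ± 0.69 between the same groups (adjusted p = 0.0772), with means of 3.45 ± 0.89 in PBS and 1.05 ± 0.97 in Control (SD, n = 3 each). The dimmer of its 2 probes had no value on PBS replicate 2, whose level of 4.02 is the brighter probe alone. Tested singly, the probes of ccl38a.4 differed by 1.67 ± 0.66 (adjusted p = 0.171) and 2.72 ± 0.91 (adjusted p = 0.12). The chemokine gene ccl34b.4 had levels of 0.74, 1.15 and 1.91 on the PIC_G arrays, 1.74, 1.06 and 2.19 on the PIC_sG arrays, 2.33, 0.84 and 0.50 on the PBS arrays and -1.14, -1.93 and -0.83 on the Control arrays. PBS exceeded Control by 2.52 ± 0.53 (adjusted p = 0.0312) and by 3.47, 2.77 and 1.33 within slides, and the 3 injected groups overlapped one another.

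The receptor gene cxcr4a is one of a pair of zebrafish receptors for the chemokine Cxcl12. Its level was 0.73, 1.00 and 1.11 on the PIC_G arrays, 0.65, 0.97 and 0.15 on the PIC_sG arrays, 1.18, 1.78 and 1.19 on the PBS arrays and -1.42, -0.33 and -0.20 on the Control arrays. PBS was the highest group, 2.03 ± 0.38 above Control (SE, adjusted p = 0.021). In this level, which joins the gene's 2 probes, each PBS array was above each dsRNA array. For PBS over Control both probes passed when tested singly, at 1.73 ± 0.32 (adjusted p = 0.0206) and 2.34 ± 0.48 (adjusted p = 0.0295). The second of these probes did overlap the dsRNA arrays, with 0.71 on PBS replicate 1 and 0.89 on PIC_G replicate 3. The share of all transcripts with PBS above every dsRNA array was not counted. The other receptor of the pair, cxcr4b, which guides migrating cells in the zebrafish embryo, had levels of 3.23, 3.41 and 4.46 on the PIC_G arrays, 2.85, 3.12 and 3.99 on the PIC_sG arrays, 3.63, 3.62 and 3.63 on the PBS arrays and 2.87, 3.06 and 3.58 on the Control arrays. Its PBS over Control difference was 0.45 ± 0.40 (adjusted p = 0.557), and its dsRNA difference of 0.11 ± 0.28 (adjusted p = 0.887) changed sign with another scaling or without 1 of 2 arrays. The ligand gene cxcl12a was above background on every array, with means of 2.05, 2.37, 2.16 and 1.55 in PIC_G, PIC_sG, PBS and Control.

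The TNF gene tnfb had levels of 0.34, 0.47 and 1.54 on the PIC_G arrays, 0.33, 0.60 and -0.47 on the PIC_sG arrays, 0.58, 0.74 and 0.18 on the PBS arrays and -1.10, -0.95 and -1.36 on the Control arrays. PBS exceeded Control by 1.64 ± 0.39 (SE, adjusted p = 0.0455), and by 1.68, 1.69 and 1.54 within slides, whereas dsRNA over no dsRNA was 0.79 ± 0.28 (adjusted p = 0.204). The ligand genes tnfsf10 and tnfsf10l4, related to mammalian TRAIL, an inducer of cell death, had PBS over Control differences of 1.68 ± 0.48 (adjusted p = 0.077) and 1.60 ± 0.40 (adjusted p = 0.0517). The arrays of all 3 injected groups lay above all Control arrays for 7 members (ccl34b.4, ccl38a.5, cxcr3.2, cxcr4a, tnfb, tnfsf10l4 and tnfsf13b), or 22.6% of those tested, against 4.3% of all transcripts. Of these 7, all but ccl34b.4 were not well above background on PIC_sG replicate 3, and the part of array brightness in this share was not tested. The count of 5 rested on the settings. It was 0 without Control replicate 3 or PBS replicate 2, 1 without Control replicate 1 or PBS replicate 3, 2 without PIC_G replicate 2, 3 without Control replicate 2, PIC_G replicate 3 or either PIC_sG replicate 1 or 2, and 9 without PIC_sG replicate 3, and it was 0 with 50th percentile scaling, normexp correction, no filter or the deposited series table, with each of the 5 genes still higher in PBS.

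Leukocyte markers moved with this comparison. Taken as the log2 of the sum of scaled signals, the level of 6 microglial and macrophage genes was 6.93 to 7.45 in PIC_G, 6.72 to 7.24 in PIC_sG, 7.29 to 7.79 in PBS and 6.11 to 6.31 in Control, and of these mpeg1.1, apoeb and c1qa rose in PBS over Control by 1.27, 1.26 and 2.28. In such a sum the genes with the brightest probes weigh most, so it need not follow every gene of a list. The same measure over 3 lymphocyte genes was 1.86 to 2.98 in PIC_G, 1.13 to 3.00 in PIC_sG, 2.13 to 2.78 in PBS and 0.08 to 0.87 in Control. Of these genes cd4-1 and zap70 rose in PBS over Control, while cd8a and rag1 were above background on 0 of 12 arrays. Over 2 neutrophil genes the sum was 2.44 to 3.02 in PIC_G, 1.45 to 2.69 in PIC_sG, 2.48 to 3.42 in PBS and 0.53 to 1.16 in Control. Over 2 erythrocyte genes it overlapped in all 4 groups, between 4.17 and 6.76. Neutrophil mmp9 rose in PBS over Control by 1.93 and neuronal elavl3 fell by 1.75. Of the lists for radial glia, oligodendrocytes, pituitary and photoreceptors, 0 of 9 tested genes passed in any comparison. By summed level, radial glia read 5.66 to 6.2 in PBS and 5.66 to 6.24 in PIC_sG, below the 6.28 to 7.02 of Control. PIC_G, at 6.17 to 6.42, overlapped Control. Oligodendrocytes read 2.68 to 4.04 in PIC_sG, below the 4.37 to 5.1 of Control, which PIC_G and PBS overlapped. The pituitary sum was 2.37 to 3.51 in PIC_G, above -0.45 to 0.8 in Control. Neuronal and photoreceptor sums overlapped Control in every group. In the dsRNA comparison c1qa (2.20, adjusted p = 0.000472) and cd4-1 (1.43, adjusted p = 0.0357) were the marker genes that rose, and both rose in PIC_sG over Control, by 3.27 and 2.48. Neither was called in PIC_G or PIC_sG over PBS, while PBS exceeded Control by 2.28 for c1qa and 2.09 for cd4-1. The part of leukocyte number in the cytokine differences was not tested.

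**Figure D3:**
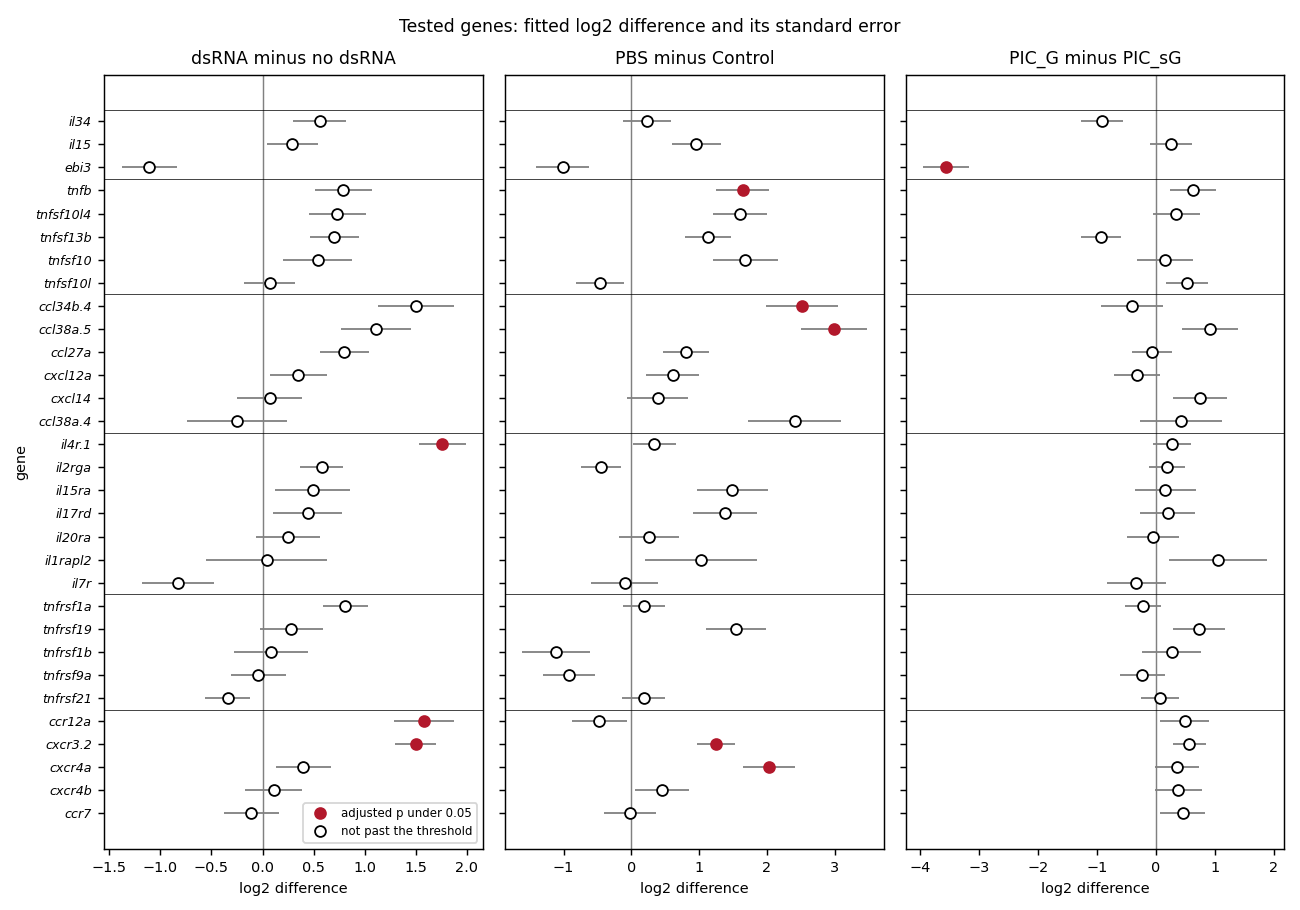
Fitted log2 differences of the 31 tested genes. Rows are genes grouped by role, the panels are dsRNA minus no dsRNA, PBS minus Control and PIC_G minus PIC_sG, bars are standard errors, and filled points had an adjusted p under 0.05. The filled points are il4r.1, ccr12a and cxcr3.2 in the first panel, tnfb, ccl34b.4, ccl38a.5, cxcr3.2 and cxcr4a in the second, and ebi3 in the third, where signs would turn if the dsRNA groups were exchanged.

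At constant temperature, dsRNA-injected fish were compared with both other groups. PIC_sG against Control takes in injection, dsRNA and, by the labels, the loss of the gradient, which cannot be told apart. It called 4 members higher (12.9%), against 1.15% of all transcripts, and 0 lower, against 0.0806%. They were ccl34b.4 (2.96 ± 0.53, adjusted p = 0.0205), cxcr3.2 (1.84 ± 0.28, adjusted p = 0.00933), il4r.1 (1.79 ± 0.32, adjusted p = 0.0207) and tnfsf13b (1.73 ± 0.34, adjusted p = 0.0368), each value a log2 difference with its SE. Within slides these differences were 2.88 to 3.02, 1.59 to 2.07, 1.65 to 2.02 and 1.46 to 2.23. The groups did not overlap in that direction for 11 members, or 35.5%, against 10.8% of all transcripts. Among the 11, ccl38a.5, cxcr3.2, cxcr4a, tnfb, tnfsf10l4 and tnfsf13b were not well above background on PIC_sG replicate 3. Undetected member probes had a median of -1.25 on that array, against -2.40, -4.37 and -3.48 on the Control arrays. The part of array brightness in this share was not tested. With the slide as a block ccl38a.5 passed as well (adjusted p = 0.0303, against 0.0575). The count was 1 without Control replicate 2, Control replicate 3 or PIC_sG replicate 1, 2 without PIC_sG replicate 2, and 0 with 50th percentile scaling, normexp correction or no filter.

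The gene tnfsf13b encodes the ligand known as BAFF, a survival factor for B cells in mammals. Its level was -2.18, -2.16 and -1.63 on the PIC_G arrays, -0.93, -1.06 and -1.19 on the PIC_sG arrays, -1.82, -1.91 and -1.24 on the PBS arrays and -2.39, -2.56 and -3.42 on the Control arrays. It was above background on 3 PIC_G arrays but on only 1 PIC_sG array, 1 PBS array and 0 Control arrays. Its means were -1.06 in PIC_sG and -2.79 in Control, and since most arrays of both groups gave signal that was not well above background, the size of this difference is not bounded. On PIC_sG replicate 3 its level of -1.19 was next to the -1.25 of undetected probes. The PIC_sG levels on replicates 2 and 3 were thus brighter after scaling than the PIC_G levels that the scanner software called present.

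Against PBS, the constant-temperature dsRNA group gave 0 calls among the members, against 0.713% of all transcripts called higher and 0.267% called lower in limma. Before adjustment, 6 members were higher (19.4%) and 1 was lower (3.23%) with a p under 0.05, against 8.43% and 8.52% of all transcripts. The PIC_sG arrays lay above all PBS arrays for 8 members (25.8%), namely ccr12a, cxcr3.2, ebi3, il2rga, il34, il4r.1, tnfrsf1a and tnfsf13b, against 9.52% of all transcripts. Of these, ccr12a, cxcr3.2, ebi3, il2rga and tnfsf13b were not well above background on PIC_sG replicate 3. Undetected member probes had a median of -1.25 on that array, against -2.52, -3.14 and -3.42 on the PBS arrays. The part of array brightness in this share was not tested. PIC_sG and PBS differ in dsRNA and in the gradient together. With the slide as a block the count was 1 (il4r.1), and with the labels of the dsRNA groups exchanged it was 1 (ebi3, which then is the PIC_G against PBS result below with its sign kept).

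In the gradient, PIC_G against PBS called 0 members higher and 1 lower, against 0.223% and 0.0372% of all transcripts. The lower one was ebi3. The PIC_G arrays lay above all PBS arrays for 5 members (ccr12a, cxcr3.2, il2rga, il4r.1 and tnfrsf1a), or 16.1%, against 16.7% of all transcripts, so that this share was near the background. The gene il2rga, for the gamma chain that several interleukin receptors share, differed by 0.90 ± 0.30 (SE, adjusted p = 0.214), with means of -0.80 ± 0.23 in PIC_G and -1.70 ± 0.32 in PBS (SD, n = 3 each). It was above background on 0 PBS arrays. With each PBS array held at no less than its dimmest signal well above background, the difference was 1.40-fold. That signal is the dimmest of any probe, so 1.40-fold is not a strict lower bound for il2rga.

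Between PIC_G and PIC_sG, 1 transcript of 16130 was called (0.0062%), and that transcript was ebi3. It was lower in PIC_G than in PIC_sG under the scanner labels and higher under the exchanged ones. In mammals EBI3 is the subunit shared by interleukin-27 and interleukin-35, which restrain T cell responses. Its level was -4.83, -3.91 and -4.08 on the PIC_G arrays, -0.15, -1.28 and -0.72 on the PIC_sG arrays, -1.86, -2.37 and -1.42 on the PBS arrays and -1.09, -0.63 and -0.91 on the Control arrays. The PIC_G arrays stood below all 9 others. The log2 difference of PIC_G from PIC_sG was -3.56 with a standard error of 0.39 (adjusted p = 0.021), and within the slides it was -4.67, -2.63 and -3.37. From PBS it was -2.39 ± 0.39 (adjusted p = 0.0457).

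These sizes depend on signals at the edge of detection. The gene was above background on 0 PIC_G, 2 PIC_sG, 1 PBS and 2 Control arrays, and its PIC_G levels lay close to those of the undetected probes of the same arrays, while undetected probes read higher on the dimmer arrays of the other groups. Its measured means were -4.27 in PIC_G, -0.72 in PIC_sG and -1.89 in PBS, and since PIC_sG and PBS levels include arrays on which it was not well above background, no lower bound on these differences is given. On PIC_sG replicate 3 its level of -0.72 was below the array's dimmest signal well above background, 0.84. Both kept probes gave lower PIC_G values, by 3.97 ± 0.46 (SE, adjusted p = 0.0487) for one and by 3.15 ± 0.72 (adjusted p = 0.693) for the other. The probes disagreed on PIC_sG against Control, with 1.83 ± 0.46 and -1.51 ± 0.72. The call between the dsRNA groups was lost with a block on the slide (adjusted p = 0.122), with 50th percentile scaling (0.316) or without PIC_sG replicate 3 (0.161), Control replicate 1 (0.0501), PBS replicate 1 (0.0568) or any of the 3 PIC_G replicates (0.0766 to 0.145). That call was also lost with quantile normalization, normexp correction, no filter or only the groups compared. The part of array brightness in this difference was not tested. The call against PBS was lost without any 1 of the 12 arrays except PIC_sG replicate 3.

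**Figure D4:**
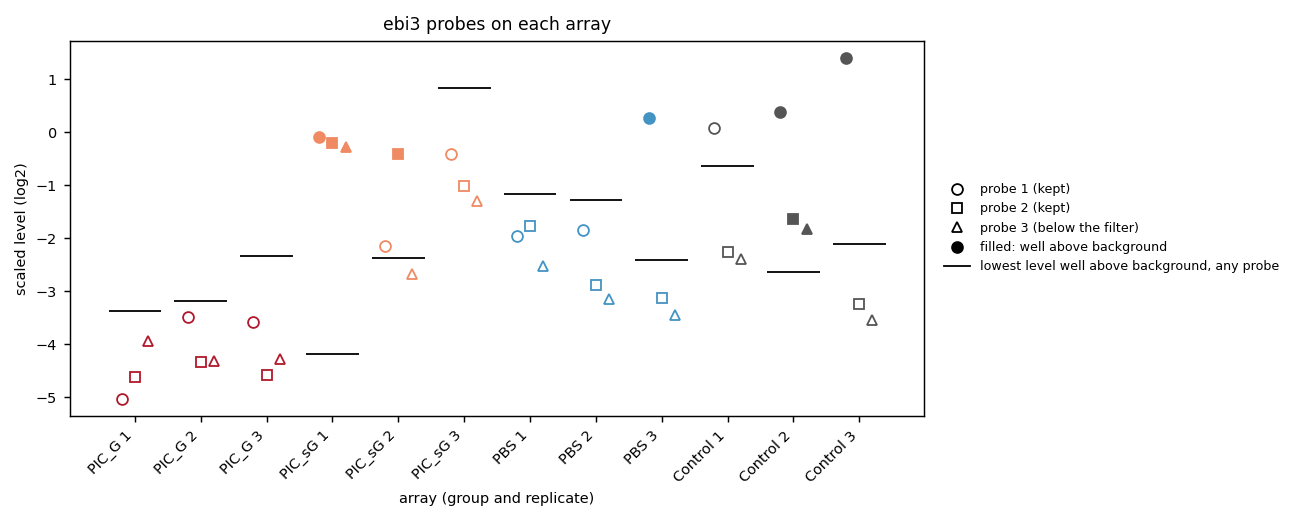
The 3 ebi3 probes on each array. The vertical axis is the scaled log2 level, symbols are probes, filled symbols were well above background, and each horizontal line is the lowest level at which any probe was well above background on that array. All PIC_G symbols are open and lie below their line, and on PIC_sG replicate 3 all 3 probes lie below its line at 0.84.

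After ebi3, the members with the smallest p between the dsRNA groups were tnfsf13b (-0.93 ± 0.34), il34 (-0.91 ± 0.36), cxcr3.2 (0.57 ± 0.28) and ccl38a.5 (0.92 ± 0.48), each a log2 difference with its SE and each with an adjusted p of 0.774. All of these signs turn under the exchanged labels. PIC_G arrays lay below all PIC_sG arrays for 3 members (ebi3, il34 and tnfsf13b), or 9.68%, against 2.44% of all transcripts. Each of these separations includes PIC_sG signal that was not well above background. On PIC_sG arrays ebi3 was well above background on 2, tnfsf13b on 1, and the dimmer il34 probe on 1. The part of array brightness in this share was not tested. The gene il34 encodes a ligand of the Csf1 receptor, on which microglia depend and which in zebrafish draws their precursors into the brain. Its level was -0.35, -0.50 and -0.34 on the PIC_G arrays, 0.42, 0.62 and 0.51 on the PIC_sG arrays, -0.44, -0.04 and -0.68 on the PBS arrays and -0.67, 0.16 and -1.35 on the Control arrays. In this level, which joins the gene's 2 probes, PIC_sG was the highest group on every slide. The probe detected on all 12 arrays did not share that order on slide 3, where it read 2.17 in PIC_G and 1.94 in PIC_sG. The il34 probes, tested singly, did not behave alike. The one detected on all 12 arrays rose by 0.90 ± 0.19 with dsRNA (SE, adjusted p = 0.0478) and by 1.48 ± 0.27 in PIC_sG over Control (adjusted p = 0.0264) but differed by -0.26 ± 0.27 between PIC_G and PIC_sG (adjusted p = 0.867), and the other, detected on 3 arrays, carried that last difference with -1.57 ± 0.59 (adjusted p = 0.788).

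The other 18 tested members passed in none of the 6 comparisons as fitted, and some of them, such as tnfsf10l4, il15ra and tnfsf10, passed under an alternative setting. Among them the ccr7 gene, for a receptor that draws leukocytes to lymphoid tissue in mammals, had means of 0.28, -0.17, 0.15 and 0.17 in PIC_G, PIC_sG, PBS and Control, and il20ra had 3.97, 4.01, 3.87 and 3.61. The IL-7 receptor gene il7r was lower after dsRNA by 0.83 ± 0.35 on the log2 scale, a difference that missed the threshold (adjusted p = 0.283). The il1rapl2 gene illustrates the limit of detection. It was above background on all 3 PIC_G arrays and on 0 of the other 9, yet its mean level of -1.24 ± 0.60 in PIC_G was next to -1.29 ± 0.79 in PBS (SD, n = 3 each), and PIC_G and PIC_sG differed by 1.06 ± 0.83 (SE, adjusted p = 0.804).

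Other genes of these pathways, listed by name, were scored by the same fits. Of 11 tested genes of the JAK, STAT and SOCS families, which relay and damp cytokine receptor signals, 1 rose with dsRNA, the interferon-responsive transcription factor gene stat1b, by 3.07 ± 0.39 (SE, adjusted p = 0.00226). It also rose by 3.79 ± 0.55 in PIC_sG over PBS (adjusted p = 0.0119) but was not called in PIC_G over PBS. The gene socs1a, for a feedback inhibitor of JAK signalling, rose by 2.32 ± 0.49 in PIC_sG over Control (adjusted p = 0.0468). These PIC_sG results would belong to PIC_G under the exchanged labels. Of 8 other cytokine receptor genes tested, cd40, a TNF receptor family member of antigen-presenting cells, rose with dsRNA by 0.98 ± 0.21 (adjusted p = 0.0462), and it was lower in PBS than in Control by a log2 difference of -1.27 ± 0.30 (adjusted p = 0.0418), as was lifra (-1.43 ± 0.34, adjusted p = 0.0427). Among 6 tested genes of interferons and their receptors, 5 other cytokine ligands and 15 genes of IL-1, Toll and TNF signalling, 0 passed the dsRNA test, and of these 26 genes tradd alone passed between PBS and Control, higher by 1.40 ± 0.29 (adjusted p = 0.0303). The kinase-activated transcription factor gene stat4 rose in PBS over Control by 2.55 ± 0.56 (adjusted p = 0.0355). The median dsRNA difference was 0.53 over the JAK, STAT and SOCS genes and 0.19 over the IL-1, Toll and TNF signalling genes, against 0.07 over all transcripts. For PBS over Control these medians were 0.56, 0.72 and 0.07.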

How the data were processed

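Brain RNA was labelled with Cy3 and hybridized to Agilent arrays. The authors deposited Feature Extraction output, whose header gives version 10.7.3.1 and array design 019161 where the methods give others, and which holds spot intensity on a linear scale, background-subtracted and detrended by the scanner software and not scaled between arrays. The deposited tables, per sample and for the series, hold that background-subtracted signal as a natural log, and 12 of 12 tables per sample matched the scanner file by label. No column of another series was found (0).

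Gene names were taken from a RefSeq accession match to GRCz12tu, which named 16568 of 43603 probes. Outlier spots were left out, repeated features averaged, log2 taken, each array's 75th percentile subtracted, probes kept where 3 or more of 12 arrays had them well above background (19136) and joined by gene with the median, and 16130 transcripts with at least 2 values per group fitted in 1 model over 4 groups (R 4.3.3, limma 3.58.1, two-sided, Benjamini-Hochberg over all of them). The fit was tested on simulated data. The number of arrays limits the precision.

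The members and gene lists were chosen with earlier results of these data known. Levels on every array are given for members with an adjusted p under 0.05, the 10 smallest p for dsRNA, the 5 smallest for PIC_G against PIC_sG and for PBS against Control, and a set of cytokine genes fixed by name. Where the dimmer group was held to a dimmest signal, each of its arrays took the larger of its level and the lowest level well above background. The mean of these was compared with the brighter group's mean. The lowest level was taken over all probes, so the values are not strict lower bounds for a single gene. Same-numbered PBS and Control arrays, which share a slide, deviated together (r = 0.556, 0.256 and 0.286 across transcripts), and the block was therefore printed for them where it moved a call. Alternatives changed the percentile to 50, the normalization to quantile, the background correction to normexp (offset 50, on median rather than mean signal), the filter, the joining of probes, the samples fitted, the weights and the labels. Other cell types were read from marker lists. Sequences of probes and promoters were not used here.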

Additional observations from a re-analysis of the deposited data

Results flagged for a closer look

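The gene ebi3 differed between the dsRNA groups with and without the gradient. The log2 difference was -3.56 for PIC_G minus PIC_sG (limma, adjusted p = 0.021) in a direct test of the 2 groups. Under the labels of the deposited series table the sign is the other one. The gene was well above background on 0 PIC_G and 2 PIC_sG arrays, so the size rests on signal at the edge of detection. The call was lost under several alternatives, among them limma with the slide as a block (adjusted p = 0.122).

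Signal was found in genes that entered no test. The genes il1b, il10ra, il13ra2 and il15l were each well above background on 2 of the 6 dsRNA arrays and on 0 of the 6 arrays without dsRNA. The share of all genes on the array with this pattern was not counted. For il1b and il15l these were PIC_G replicate 2 and PIC_sG replicate 2, with il1b levels of -1.34 and 0.97 there and il15l levels of -1.11 and 0.51. On PBS replicate 1 il1b read -0.16 without being called well above background, where undetected member probes had a median of -2.52. For il10ra they were PIC_G replicate 1 and PIC_sG replicate 1, and for il13ra2 PIC_G replicates 1 and 3. PIC_G replicate 1 and PIC_sG replicate 1 also had the most features above background of all arrays, 21900 and 20280, and the part of array brightness was not tested.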

How the results depend on the processing

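The number of members called was recomputed under each alternative. For dsRNA over no dsRNA, 3 members were called, 0 with 50th percentile scaling or normexp, 1 with no filter and 11 with array weights, and 2 to 4 when arrays were left out singly. For PBS minus Control, 5 were called, 0 with 50th percentile scaling, normexp, no filter, the series table or only the groups compared, 1 with quantile normalization, 11 with array weights, and 0 to 9 when arrays were left out singly. For PIC_sG minus Control, 4 were called, 0 with 50th percentile scaling, normexp, no filter or only the groups compared, 2 with quantile normalization, 7 with array weights, and 1 to 6 when arrays were left out singly. That comparison called 5 higher and 1 lower with the dsRNA groups exchanged, and 3 higher and 1 lower with the series table. For PIC_sG minus PBS the count was 0, and 1 with the replicate block or the dsRNA groups exchanged, 4 with the series table, and 0 to 1 when arrays were left out singly (1 without PIC_sG replicate 1). For PIC_G minus PBS, 1 was called, 0 with 50th percentile scaling, quantile normalization, normexp, no filter, probes tested one by one, exchanged groups or only the groups compared, 2 with the replicate block, 5 with array weights, and 0 to 3 when arrays were left out singly (3 without PIC_sG replicate 3). For PIC_G minus PIC_sG, 1 was called, and 0 with 50th percentile scaling, quantile normalization, normexp, no filter, the filter of 6 arrays, the replicate block, the series table or only the groups compared, and 0 to 1 when arrays were left out singly. The replicate block added ccl38a.5 to the calls for PIC_sG minus Control (5 in all) and tnfsf10l4 to those for PBS minus Control (6 in all), and left the 3 dsRNA calls as they were. Array weights ran from 0.219 for PIC_sG replicate 3 to 4.34 for PIC_G replicate 3.

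Among the differences of members named in the text that were recomputed under every alternative, the signs that turned were as follows. Over all 31 tested members, scaling on the 50th percentile moved the number above 0 to 20 for dsRNA, against 25, to 26 for PIC_G minus PBS, against 18, and to 28 for PIC_G minus PIC_sG, against 21. For dsRNA over no dsRNA, cxcr4b was -0.004 with 50th percentile scaling, -0.056 without PIC_sG replicate 3 and -0.078 without PIC_G replicate 3, within a range of -0.078 to 0.230 when arrays were left out singly. With the dsRNA groups exchanged, or with the series table, PIC_G minus PBS for ebi3 was 1.17 or 0.018, and PIC_G minus PIC_sG was 3.56 or 4.37 for ebi3, -0.924 or -1.19 for ccl38a.5, -0.572 or -0.884 for cxcr3.2, 0.914 or 1.21 for il34 and 0.929 or 0.529 for tnfsf13b. Scaling on the 50th percentile moved the median difference of all transcripts between PIC_G and PIC_sG to 0.955, against 0.18, and that of PIC_sG minus Control to -0.623, against -0.003. It also moved the split of all calls to 54 higher and 29 lower for dsRNA, against 198 and 36, and to 27 and 12 for PIC_sG minus Control, against 185 and 13. The cause of these changes was not tested. Signal over background on PIC_sG replicate 3 and Control replicate 1 limits what can be said of dim genes.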
